A study of Homo sapiens with 3 samples.

Results

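Cholesterol and long-chain fatty acids are made from acetyl units by enzymes whose genes are switched on together, and 31 of these genes were followed in a myeloma line, a bone marrow stromal line and a coculture of both. The members were taken by symbol, as a list of the pathway's enzymes, sensors and transporters, and all 31 were among the 43913 gene symbols in the data. The assay was Drop-seq, in which single cells share a droplet with a bead whose primers carry a cell barcode and a unique molecular identifier (UMI), so that RNA molecules are counted cell by cell. The 3 libraries were MM.1S in monoculture, HS-5 in monoculture and MM.1S with HS-5 after 4 h of coculture, without drug or cytokine. The 4 h is the time in the labels and methods, while some figure legends of the study name a shorter one. MM.1S is an established line of multiple myeloma, a cancer of antibody-secreting plasma cells, and HS-5 an established stromal line from bone marrow. Each line was grown in its own medium, a phenol-red free RPMI for MM.1S and DMEM for HS-5, both with foetal bovine serum, which carries lipoprotein cholesterol. The medium of the coculture and whether the coculture library came from the fluorescent knock-in versions of the lines are not given in the sources used here, so in each line the presence of the other line, the medium and the library cannot be told apart. Each condition is 1 library, so no difference has a replicate check, no test was made, and every 95% interval covers counting error only.

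The pathway begins with the mevalonate steps, which turn acetyl-CoA into isoprenoid units, goes on through squalene and lanosterol to cholesterol, and has a separate branch for fatty acids. Its genes are controlled by the SREBP factors, encoded by SREBF1 and SREBF2, which are held in the endoplasmic reticulum with their escort SCAP by the INSIG proteins when sterols are plentiful, and which move on to the nucleus when sterols are scarce. INSIG1 is itself an SREBP target, so that it serves both as brake and as readout. Plasma cells are known for a large endoplasmic reticulum, the compartment where most of the sterol enzymes sit.

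Kept cells had at least 200 genes, which left 3947 MM.1S monoculture cells, 3732 HS-5 monoculture cells and 3856 coculture cells. Coculture cells were given a line from genes that were at least 50-fold apart between the monocultures and no member of the set: 1627 were MM.1S, 2108 were HS-5 and 121 (3.14%) held RNA of both and were left out. MM.1S cells had a median of 2201 UMIs in monoculture and 670 in coculture, with 6.24% and 3.62% of UMIs from mitochondrial genes. HS-5 cells had medians of 971.5 and 957 UMIs, with 2.38% and 1.86% mitochondrial. Of 12 plasma cell markers, CD27, SLAMF7 and IGLL5 were at or under 3.03 CPM (UMIs per 1000000 UMIs) in every group, while the summed list had 10106 and 6919 CPM in MM.1S against 209 and 226 CPM in HS-5 cells. JCHAIN and MZB1 carried that sum in MM.1S cells, with 6664 and 2526 CPM in monoculture. SDC1, a defining plasma cell marker, went against it, with 38.1 and 125 CPM in MM.1S monoculture and coculture cells and 135 and 126 CPM in HS-5 cells. The 12 stromal markers summed to 8460 and 10905 CPM in HS-5 and to 6057 and 5675 CPM in MM.1S cells, which carried FN1, LGALS1, S100A6 and CAV1. FN1 was higher in MM.1S cells, at 810.3 and 2220 CPM, than in HS-5 cells, at 252 and 280.3 CPM. TAGLN and COL3A1 were at or under 4.88 CPM in all groups, so HS-5 lacked those defining stromal markers. RNA of the other line that was free in the droplets made up an estimated 1.49% of UMIs in MM.1S coculture cells and 0.717% in HS-5 coculture cells. These estimates used the genes that assigned the lines. Cells rich in the other line's RNA had thus been left out, and the estimates may be low.

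MM.1S cells carried far more of this pathway's RNA than HS-5 cells. In MM.1S monoculture the 31 members summed to 12195 CPM (12128 to 12262, exact 95% Poisson interval), which is 1.22% of all UMIs, and in HS-5 monoculture they summed to 1167 CPM (1141 to 1195), or 0.117%. The sums in the coculture library were 9549 CPM (9383 to 9718) in MM.1S cells and 1350.2 CPM (1305 to 1397) in HS-5 cells. INSIG1 alone gave 58300 of the 127229 member UMIs in MM.1S monoculture. Without it the other 30 members still summed to 6607 CPM in MM.1S against 1128 CPM in HS-5 monoculture.

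**Figure D1:**
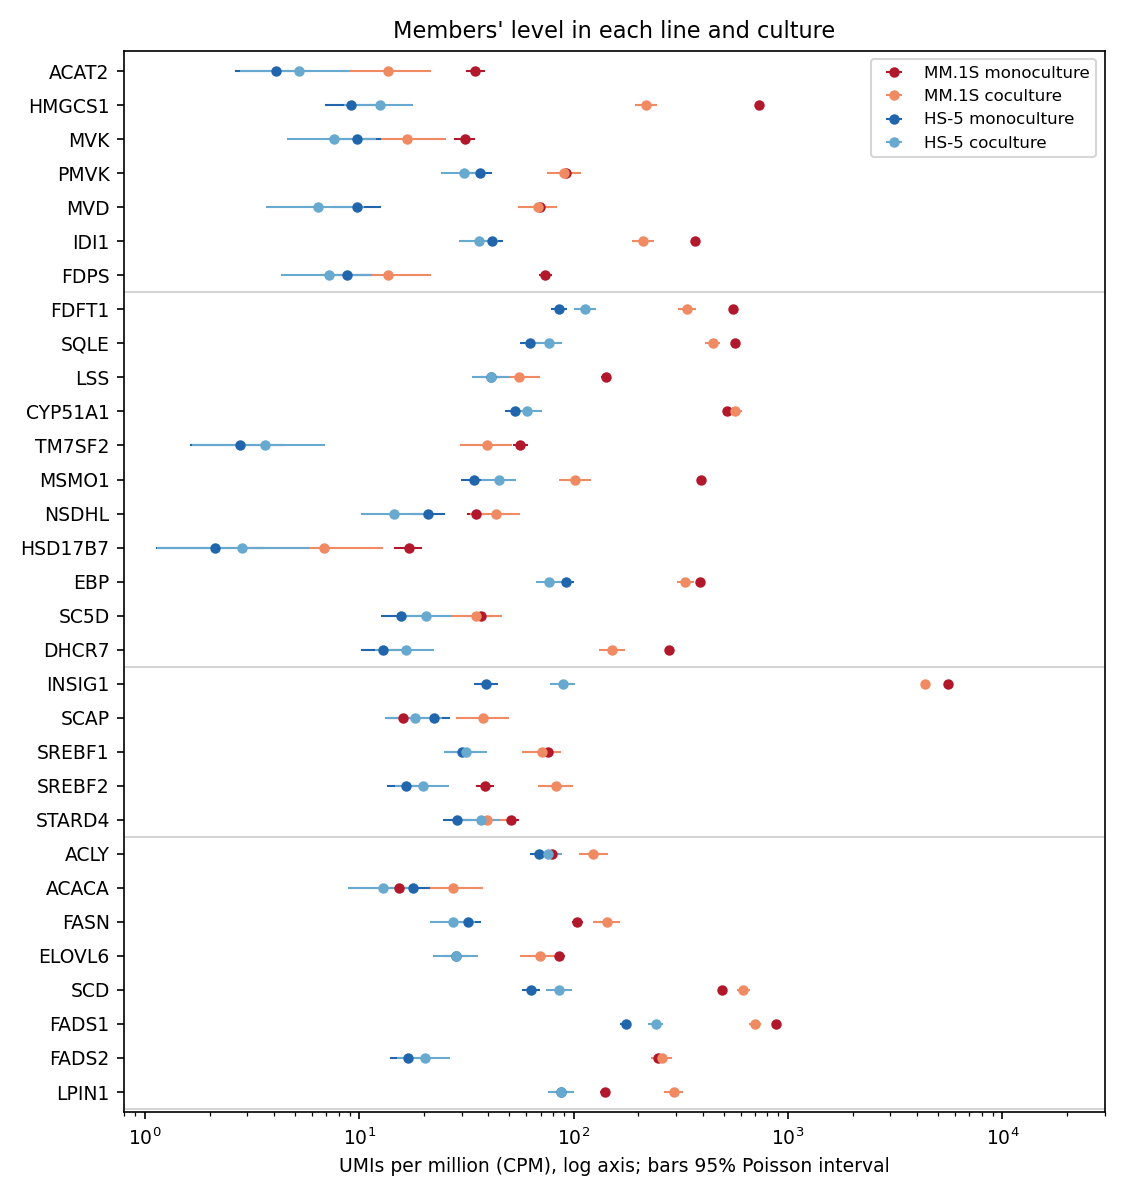
Level of each of the 31 members in CPM (log axis) in the 4 groups of cells, with exact 95% Poisson intervals as bars and grey lines between the mevalonate steps, the squalene to cholesterol steps, sensing and transport, and the fatty acid and glycerolipid enzymes. For most members both MM.1S groups (red, orange) lie to the right of both HS-5 groups (blue), with INSIG1 farthest, at 5588 and 4342 CPM against 39.1 and 89.0 CPM.

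The bases before 6 of the genes on which the comparisons turn are printed here because SREBP acts next to the factors that read CCAAT and GGGCGG. These genes are the sterol enzymes HMGCS1, MSMO1, FDPS and LSS, the sensor INSIG1, and SREBF2. Those enzymes were at least 2-fold lower in MM.1S cells in coculture. SREBF2 was the only member with a RefSeq entry to hold TCACNCCAC, a form of the sterol element, in the 250 bases before the start. Other forms of the element and other positions were not searched. The printed bases come from RefSeq (GRCh38.p14), run 5′ to 3′ on the gene's strand, and stop before the gene's first exon in GENCODE release 29. Capitals mark CCAAT, which reads ATTGG where it lies on the other strand, and in SREBF2 also the sterol element.
HMGCS1: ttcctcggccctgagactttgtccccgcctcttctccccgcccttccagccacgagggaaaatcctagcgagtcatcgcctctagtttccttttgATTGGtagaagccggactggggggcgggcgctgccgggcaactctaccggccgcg
MSMO1: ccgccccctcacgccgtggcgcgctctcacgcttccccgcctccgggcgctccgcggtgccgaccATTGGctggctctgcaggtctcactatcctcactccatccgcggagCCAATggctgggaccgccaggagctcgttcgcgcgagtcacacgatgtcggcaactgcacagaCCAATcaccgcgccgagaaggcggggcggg
FDPS: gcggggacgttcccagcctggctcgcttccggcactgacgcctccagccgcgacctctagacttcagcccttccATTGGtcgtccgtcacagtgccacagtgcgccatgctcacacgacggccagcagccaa
LSS: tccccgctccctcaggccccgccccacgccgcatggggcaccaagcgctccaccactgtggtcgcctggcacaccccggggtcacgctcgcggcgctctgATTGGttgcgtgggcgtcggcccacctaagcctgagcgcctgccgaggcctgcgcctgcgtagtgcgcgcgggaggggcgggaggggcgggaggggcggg
INSIG1: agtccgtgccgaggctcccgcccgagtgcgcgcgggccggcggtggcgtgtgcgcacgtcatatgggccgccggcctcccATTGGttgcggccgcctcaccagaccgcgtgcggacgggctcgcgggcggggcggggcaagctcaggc
SREBF2: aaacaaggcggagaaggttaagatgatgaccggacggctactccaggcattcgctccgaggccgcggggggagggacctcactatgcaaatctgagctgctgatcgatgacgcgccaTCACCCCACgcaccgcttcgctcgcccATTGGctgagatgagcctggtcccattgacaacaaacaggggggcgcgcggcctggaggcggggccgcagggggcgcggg
They lie at chr5:43313513-43313662 (minus strand), chr4:165327419-165327622 (plus), chr1:155308616-155308747 (plus), chr21:46228825-46229024 (minus), chr7:155297628-155297775 (plus) and chr22:41832855-41833078 (plus), and none is transcribed as part of its gene in that annotation. MSMO1 holds 3 copies of CCAAT, starting 185, 139 and 76 bases before the RefSeq start, while the others hold 1 each in the printed bases, at 155 bases for HMGCS1, 176 for FDPS, 150 for LSS, 170 for INSIG1 and 106 for SREBF2. Over the 250 bases before the start, on both strands, CCAAT was found in 19 of the 27 members with a RefSeq entry (70.4%) and in 37.0% of 27305 genes. GGGCGG was found in 26 of 27 members (96.3%) against 46.2% of genes. TCACNCCAC was found in 1 member (3.70%) against 1.09% of genes, and CACGTG, the E-box that SREBP can also bind, in 3 members (11.1%), SC5D, INSIG1 and SCAP, against 7.73% of genes. These are matches of letters in a fixed window and no test was made of them. SQLE, FDFT1, ACAT2 and FASN were not among the entries.

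Between the monocultures, 30 of the 31 members had a mean level of at least 10 CPM, and 24 of them were at least 2-fold lower in HS-5 than in MM.1S, where 15.8% of 8734 genes were. None was at least 2-fold higher in HS-5, where 39.0% of genes were. The median log2 ratio of HS-5 over MM.1S was -3.07 for 17 sterol synthesis enzymes and -1.64 for the 8 fatty acid and glycerolipid enzymes, against 0.59 for all genes. The cells of the coculture library, captured and sequenced together, also had the set lower in HS-5: of 29 members at that level 24 were at least 2-fold lower in HS-5 and 0 higher, where 16.4% and 26.8% of 8884 genes were. There the median was -1.84 for 16 sterol enzymes and -1.64 for the fatty acid group, against 0.18 for all genes.

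The libraries behind these 2 comparisons are different, and 20 members were at least 2-fold lower in HS-5 in both. The share of all genes that were 2-fold lower in both was not counted. At any size of difference, 27 of the 29 members at level in both were lower in HS-5 in both, where 25.7% of 8314 genes were. ACAT2, FDPS, LSS and SC5D passed only in the monocultures, where ACAT2 fell under the level of 10 CPM in the coculture, and NSDHL, SCAP, ACACA and LPIN1 passed only within the coculture. SCAP there did not pass in cells with at least 500 genes (-0.86), in cells of 500 to 1500 UMIs (-0.93) or with equal weight per cell (-0.95), and ACACA not with 200 to 2500 genes and under 5% mitochondrial UMIs (-0.88). Over the 29 members at level in both, the 2 log2 ratios had a Pearson r of 0.82 and a Spearman rho of 0.71, and over 8314 genes 0.86 and 0.73. These are descriptions across genes, which are not independent, of libraries of the same lines.

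**Figure D2:**
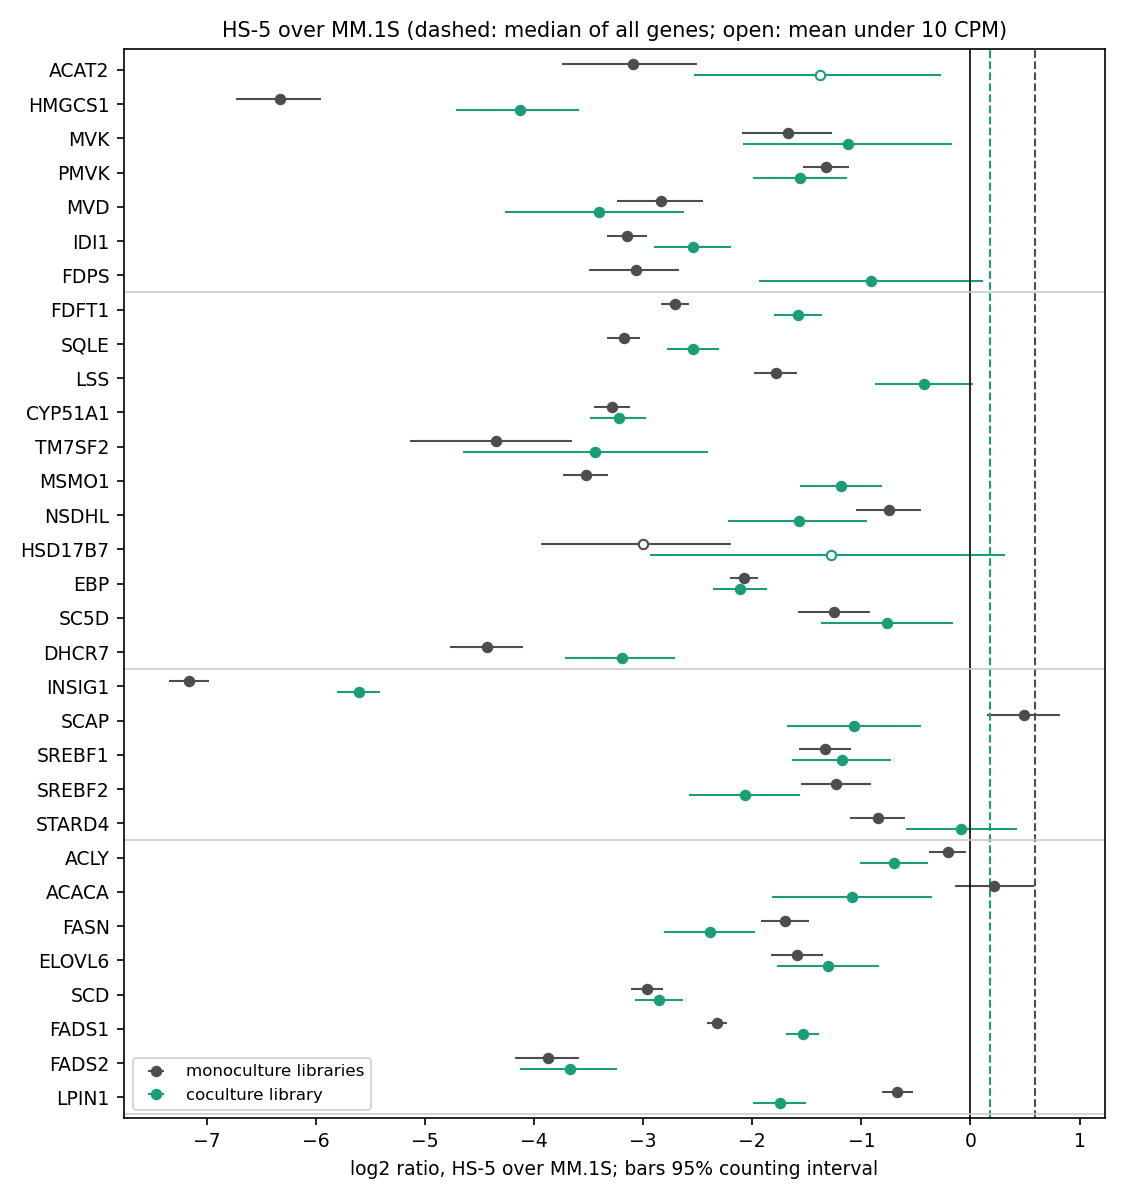
Log2 ratio of HS-5 over MM.1S for each member in the monoculture libraries (grey) and within the coculture library (green), with 95% counting intervals; dashed lines are the medians of all genes, 0.59 and 0.18, and open symbols have a mean under 10 CPM. Nearly all members lie left of 0, and INSIG1 and HMGCS1 lie farthest left in both.

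INSIG1 (chromosome 7, 155297776 to 155310235, plus strand, GRCh38) showed the largest gap between the lines among the members. It had 5588 CPM (5543 to 5634, 58300 UMIs) in MM.1S monoculture and 4342 CPM (4231 to 4456, 5730 UMIs) in MM.1S coculture cells. HS-5 cells held INSIG1 at 39.1 CPM (34.3 to 44.3, 240 UMIs) in monoculture and 89.00 CPM (77.6 to 102, 221 UMIs) in coculture. None of the 4 intervals overlapped, and the log2 ratio of HS-5 over MM.1S was -7.16 (-7.35 to -6.98) in the monocultures and -5.61 (-5.81 to -5.41) within the coculture.

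SREBF2, whose product drives mainly the sterol branch, had 38.5 CPM (34.9 to 42.5, 402 UMIs) in MM.1S monoculture and 82.6 CPM (67.8 to 99.6, 109 UMIs) in coculture. HS-5 cells held SREBF2 at 16.4 CPM (13.4 to 19.98, 101 UMIs) and 19.7 CPM (14.6 to 26.1, 49 UMIs). The HS-5 groups overlapped each other and lay below both MM.1S groups. SREBF1, whose product drives mainly the fatty acid branch, had 75.4 CPM (70.3 to 80.9, 787 UMIs) in MM.1S monoculture and 71.2 CPM (57.6 to 87.2, 94 UMIs) in coculture. HS-5 cells held SREBF1 at 29.96 CPM (25.8 to 34.6, 184 UMIs) and 31.4 CPM (24.8 to 39.2, 78 UMIs). Here the cultures of each line overlapped and the lines did not.

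SCAP, the escort of the SREBP factors, was 1 of 2 members, with ACACA, whose monoculture level was not lower in HS-5. Its level was 15.9 CPM (13.6 to 18.5, 166 UMIs) in MM.1S monoculture and 37.9 CPM (28.1 to 49.96, 50 UMIs) in coculture. HS-5 cells held SCAP at 22.3 CPM (18.7 to 26.4, 137 UMIs) and 18.1 CPM (13.2 to 24.2, 45 UMIs). The HS-5 over MM.1S ratio was 0.49 (0.15 to 0.82) in the monocultures, the highest of the set but under the all-gene median, and -1.06 (-1.68 to -0.45) within the coculture. STARD4, a carrier of cholesterol between membranes, had 51.2 CPM (46.9 to 55.7, 534 UMIs) in MM.1S monoculture and 39.4 CPM (29.4 to 51.7, 52 UMIs) in coculture. HS-5 cells held STARD4 at 28.5 CPM (24.4 to 33.04, 175 UMIs) and 37.05 CPM (29.9 to 45.4, 92 UMIs), and within the coculture its ratio of -0.09 (-0.60 to 0.43) was the nearest to 0 of the set. STARD4-AS1, which the annotation names as its antisense gene, was listed with 19 and 23 UMIs in the monocultures, and the counting's strand setting is not given.

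Among the mevalonate enzymes, HMGCS1, which makes the 3-hydroxy-3-methylglutaryl-CoA on which the pathway draws, was the most line-biased after INSIG1. It had 734 CPM (718 to 751, 7657 UMIs) in MM.1S monoculture and 218 CPM (194 to 245, 288 UMIs) in coculture. HS-5 cells held HMGCS1 at 9.12 CPM (6.89 to 11.8, 56 UMIs) and 12.5 CPM (8.48 to 17.7, 31 UMIs). Both MM.1S groups lay above both HS-5 groups, and the HS-5 over MM.1S log2 ratio was -6.33 (-6.74 to -5.95) in the monocultures and -4.13 (-4.71 to -3.59) within the coculture. FDPS, which joins isoprenoid units to farnesyl diphosphate and is the target of bisphosphonate drugs, had 73.7 CPM (68.6 to 79.1, 769 UMIs) in MM.1S monoculture and 13.6 CPM (8.08 to 21.6, 18 UMIs) in coculture. HS-5 cells held FDPS at 8.79 CPM (6.604 to 11.5, 54 UMIs) and 7.25 CPM (4.296 to 11.5, 18 UMIs). Its MM.1S coculture interval overlapped both HS-5 intervals. FDPS has several processed copies in the genome, and rows named as its pseudogenes held at most 16 UMIs each in MM.1S monoculture, so that a few of its reads may have been counted there.

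For the other mevalonate steps the monoculture values of MM.1S and HS-5 were 34.8 and 4.07 CPM for ACAT2, which joins acetyl-CoA units, and 31.1 and 9.77 CPM for the mevalonate kinase MVK. The phosphomevalonate kinase PMVK had 91.5 and 36.6 CPM. The decarboxylase MVD had 69.8 and 9.77 CPM, and the isomerase IDI1 366 and 41.4 CPM. All 5 were lower in HS-5, with log2 ratios from -3.15 for IDI1 to -1.32 for PMVK.

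Of the 11 enzymes from squalene to cholesterol, DHCR7, which makes cholesterol from 7-dehydrocholesterol, had the lowest ratio in the monocultures, with TM7SF2 within its interval. It had 277 CPM (267 to 287, 2889 UMIs) in MM.1S monoculture and 152 CPM (131 to 174, 200 UMIs) in coculture. HS-5 cells held DHCR7 at 12.9 CPM (10.2 to 16.03, 79 UMIs) and 16.5 CPM (11.8 to 22.4, 41 UMIs), and the log2 ratio was -4.43 (-4.77 to -4.11) in the monocultures and -3.20 (-3.72 to -2.71) within the coculture. There TM7SF2 at -3.44 (-4.65 to -2.41) and CYP51A1 at -3.23 (-3.49 to -2.97) were beside it. MSMO1, which takes methyl groups off lanosterol's ring, had 394 CPM (382 to 406, 4106 UMIs) in MM.1S monoculture and 102 CPM (85.1 to 120.3, 134 UMIs) in coculture. HS-5 cells held MSMO1 at 34.2 CPM (29.7 to 39.1, 210 UMIs) and 44.7 CPM (36.8 to 53.8, 111 UMIs). The lines stayed apart in both cultures, with a log2 ratio of -3.52 in the monocultures and -1.18 within the coculture.

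LSS, the cyclase that closes squalene epoxide to lanosterol, had 141 CPM (134 to 149, 1475 UMIs) in MM.1S monoculture and 55.3 CPM (43.4 to 69.6, 73 UMIs) in coculture. HS-5 cells held LSS at 41.03 CPM (36.1 to 46.4, 252 UMIs) and 41.1 CPM (33.5 to 49.9, 102 UMIs). The 3 groups other than MM.1S monoculture overlapped in part, and the ratio within the coculture was -0.43 (-0.88 to 0.02). NSDHL, a dehydrogenase of the demethylation steps, had 35.2 CPM (31.7 to 38.97, 367 UMIs) in MM.1S monoculture and 43.2 CPM (32.7 to 55.97, 57 UMIs) in coculture. HS-5 cells held NSDHL at 21.00 CPM (17.5 to 24.95, 129 UMIs) and 14.5 CPM (10.2 to 20.1, 36 UMIs). For NSDHL the cultures overlapped within each line.

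The remaining steps differed the same way between the monocultures. FDFT1, which makes squalene, had 556 CPM in MM.1S and 85.1 in HS-5, and SQLE, the epoxidase and a rate-limiting step, 563 and 62.2 CPM. CYP51A1, the lanosterol demethylase, had 519 and 53.2 CPM, and EBP, a sterol isomerase, 390.1 and 92.5 CPM. The low-level reductase TM7SF2 had 56.3 and 2.77 CPM, the desaturase SC5D 37.1 and 15.6 CPM, and HSD17B7, a ketosteroid reductase, 17.0 and 2.12 CPM. Their log2 ratios ran from -4.35 for TM7SF2 to -1.25 for SC5D, with HSD17B7 under the level of 10 CPM. HSD17B7P2, named as a pseudogene of HSD17B7, had 70 UMIs beside 177 for HSD17B7 in MM.1S monoculture.

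In the monocultures the members whose log2 ratios between the lines lay nearest to 0 were ACLY and ACACA of the fatty acid branch. ACLY, which makes cytosolic acetyl-CoA from citrate, had 79.4 CPM (74.05 to 84.96, 828 UMIs) in MM.1S monoculture and 124 CPM (105 to 144, 163 UMIs) in coculture. HS-5 cells held ACLY at 68.7 CPM (62.3 to 75.6, 422 UMIs) and 76.1 CPM (65.6 to 87.8, 189 UMIs). The log2 ratio of ACLY was -0.21 (-0.38 to -0.04) in the monocultures and -0.70 (-1.01 to -0.39) within the coculture. ACACA, the carboxylase that makes malonyl-CoA, had 15.2 CPM (12.96 to 17.8, 159 UMIs) in MM.1S monoculture and 27.3 CPM (19.1 to 37.8, 36 UMIs) in coculture. HS-5 cells held ACACA at 17.7 CPM (14.6 to 21.4, 109 UMIs) and 12.9 CPM (8.81 to 18.2, 32 UMIs), and its monoculture ratio of 0.22 (-0.15 to 0.58) had an interval on both sides of 0. Within the coculture ACACA was at -1.08 (-1.82 to -0.35).

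The desaturases were strongly biased to MM.1S. FADS2, the delta-6 desaturase of polyunsaturated fatty acids, had 248 CPM (239 to 258, 2590 UMIs) in MM.1S monoculture and 257 CPM (230.3 to 286, 339 UMIs) in coculture. HS-5 cells held FADS2 at 16.9 CPM (13.8 to 20.5, 104 UMIs) and 20.1 CPM (14.9 to 26.5, 50 UMIs), and the log2 ratio was -3.87 (-4.17 to -3.59) in the monocultures and -3.67 (-4.13 to -3.24) within the coculture. FADS1, the delta-5 desaturase, had 874 CPM (857 to 893, 9123 UMIs) in MM.1S monoculture and 699 CPM (655 to 746, 923 UMIs) in coculture. HS-5 cells held FADS1 at 174 CPM (164 to 185, 1071 UMIs) and 241 CPM (222 to 261, 598 UMIs). The lines did not overlap for either gene. FADS1 (chromosome 11, 61799625 to 61829318, minus strand) lies inside the span of FADS2 (chromosome 11, 61792980 to 61867354, plus strand) on the other strand, and without a stated strand setting reads of the overlap cannot be told apart. SCD, which makes oleate from stearate, had 494 CPM in MM.1S and 63.3 in HS-5 monoculture.

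FASN, the fatty acid synthase, had 104 and 32.1 CPM in the MM.1S and HS-5 monocultures, and ELOVL6, which lengthens palmitate, 85.2 and 28.3 CPM. LPIN1, a phosphatidate phosphatase of glycerolipid synthesis, had 139 CPM (132 to 147, 1454 UMIs) in MM.1S monoculture and 293 CPM (265 to 324, 387 UMIs) in coculture. HS-5 cells held LPIN1 at 87.6 CPM (80.3 to 95.3, 538 UMIs) and 87.4 CPM (76.1 to 99.8, 217 UMIs), so its lines lay apart in both cultures and the HS-5 cultures overlapped.

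In MM.1S cells the sterol enzymes were lower in coculture than in monoculture, while the fatty acid enzymes as a group were not. All 31 members were at level, and 6 were at least 2-fold lower in coculture, where 6.22% of 7835 genes were: FDPS, MSMO1, HMGCS1, LSS, ACAT2 and HSD17B7, all sterol synthesis enzymes. The 3 that were at least 2-fold higher, where 19.9% of genes were, were SCAP, SREBF2 and LPIN1. These calls were close to the limit: in cells of 500 to 1500 UMIs, with median of ratios scaling and with the length trend removed SREBF2 was at 0.84, 0.92 and 0.83 and LPIN1 at 0.95, 0.89 and 0.80, and SCAP was at 0.89 in cells with at least 500 genes. Of those lower, ACAT2 was at -0.96 in cells of 500 to 1500 UMIs and HSD17B7 at -0.86 with the length trend removed. The median log2 ratio of coculture over monoculture was -0.75 for the 18 sterol enzymes and 0.39 for the 8 fatty acid and glycerolipid enzymes, against 0.25 for all genes. Summed, the 18 sterol enzymes went from 4386 CPM (4346 to 4426) to 2746 CPM (2657 to 2837), a log2 ratio of -0.68 (-0.72 to -0.63), and the 8 fatty acid enzymes from 2040 CPM (2012 to 2067) to 2230.3 CPM (2150.4 to 2312). Of the 18 sterol enzymes 13 had an interval wholly under 0 and 1 wholly above. The share of all genes with such intervals was not counted. Set against the all-gene median instead of 0, 1 of the 18 had a higher ratio.

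**Figure D3:**
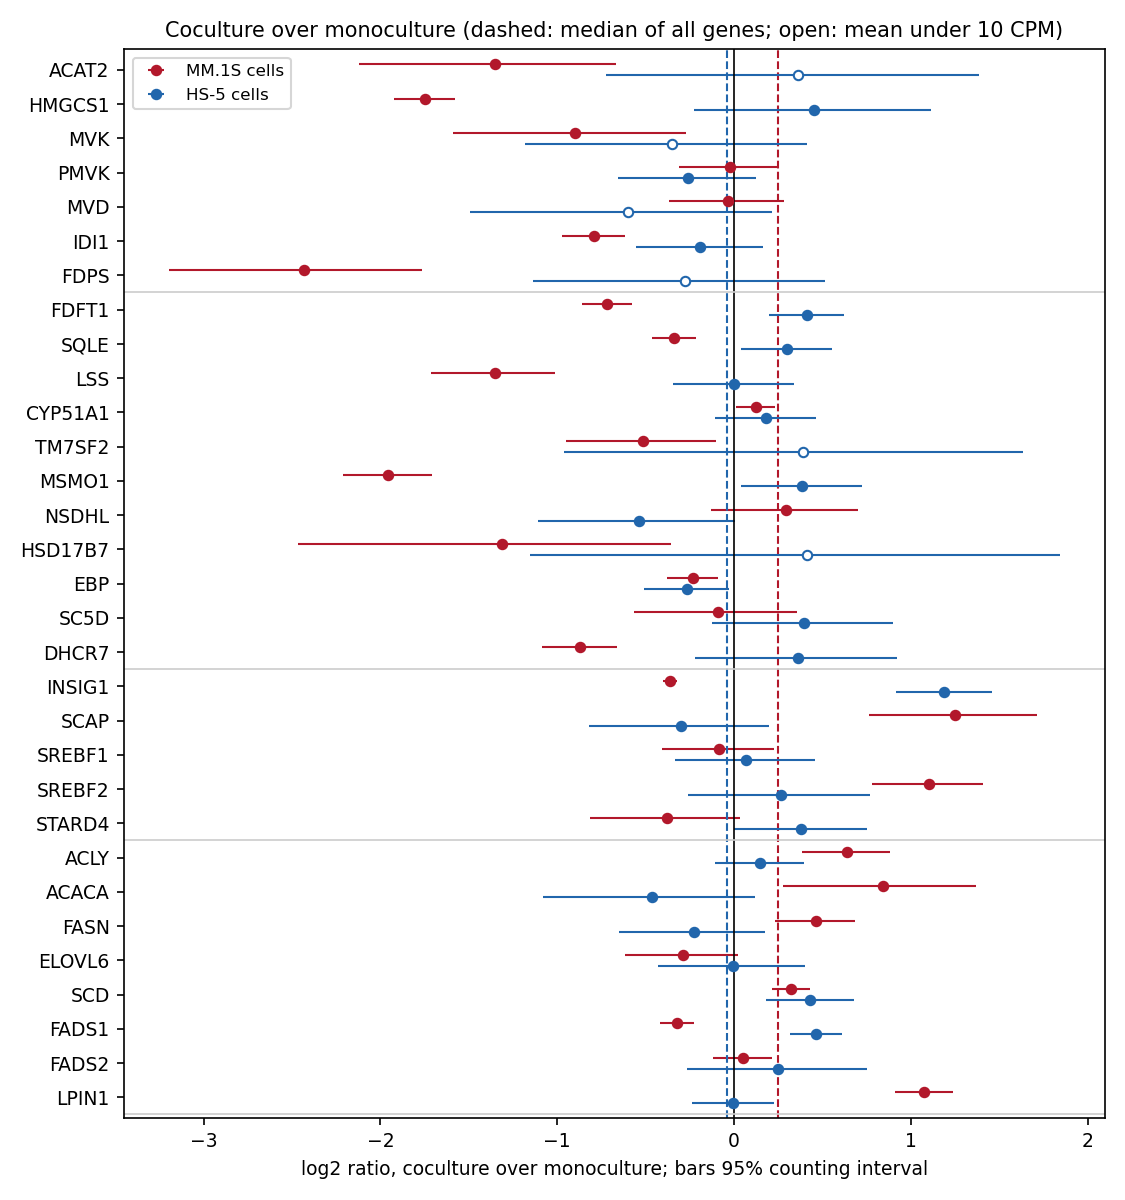
Log2 ratio of coculture over monoculture for each member in MM.1S cells (red) and HS-5 cells (blue), with 95% counting intervals; dashed lines are the medians of all genes, 0.25 in MM.1S and -0.04 in HS-5, and open symbols have a mean under 10 CPM. In MM.1S cells 6 sterol enzymes lie under -1 and SCAP, SREBF2 and LPIN1 above 1, while the HS-5 values lie near 0 apart from INSIG1 at 1.19.

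The 7 mevalonate enzymes were all below 0 in MM.1S cells. FDPS had a log2 ratio of -2.43 (-3.20 to -1.76), HMGCS1 of -1.75 (-1.92 to -1.58) and ACAT2 of -1.35 (-2.12 to -0.67). MVK was at -0.90 (-1.59 to -0.27) and IDI1 at -0.79 (-0.97 to -0.62). FDPS and ACAT2 rest on 18 UMIs each in the coculture cells. PMVK at -0.02 (-0.31 to 0.25) and MVD at -0.03 (-0.37 to 0.28) had intervals on both sides of 0, so that no difference was detectable for them at this depth.

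From squalene on, MSMO1 at -1.95 (-2.21 to -1.71), LSS at -1.35 (-1.71 to -1.01) and HSD17B7 at -1.31 (-2.47 to -0.36) were lowest, the last on 9 UMIs in coculture. DHCR7 was at -0.87 (-1.08 to -0.66), FDFT1 at -0.72 (-0.86 to -0.58) and TM7SF2 at -0.51 (-0.95 to -0.10). These 6 had intervals wholly under 0, as did SQLE at -0.34 (-0.46 to -0.21) and EBP at -0.23 (-0.38 to -0.09). SC5D at -0.09 (-0.56 to 0.35) and NSDHL at 0.30 (-0.13 to 0.70) were on both sides of 0. CYP51A1 at 0.12 (0.01 to 0.23) was the one with an interval above 0. It lay under the all-gene median of 0.25, and with median of ratios scaling it was at -0.06.

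The sensors went apart in MM.1S cells. INSIG1 had a log2 ratio of -0.36 (-0.40 to -0.32), SREBF2 of 1.10 (0.78 to 1.41) and SCAP of 1.25 (0.77 to 1.72). SREBF1 at -0.08 (-0.41 to 0.23) and STARD4 at -0.38 (-0.82 to 0.04) had intervals on both sides of 0. In the fatty acid branch LPIN1 was at 1.07 (0.91 to 1.24), ACACA at 0.84 (0.28 to 1.37), ACLY at 0.64 (0.39 to 0.88), FASN at 0.46 (0.23 to 0.69) and SCD at 0.32 (0.21 to 0.43), all with intervals above 0. The all-gene median of 0.25 lay within the intervals of FASN and SCD, which were at 0.13 and 0.049 with the length trend removed. FADS1 was lower at -0.32 (-0.42 to -0.22), while ELOVL6 at -0.29 (-0.62 to 0.02) and FADS2 at 0.05 (-0.12 to 0.21) were on both sides of 0.

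The MM.1S coculture cells had 670 UMIs at the median against 2201 in monoculture, and longer transcripts had higher ratios in general (Spearman rho 0.30 over 7728 genes, as a description). In cells of 500 to 1500 UMIs alone, 821 in monoculture and 1059 in coculture, the sterol median was -0.59 and INSIG1 was at -0.01. There 5 members were at least 2-fold lower and 1 higher. The all-gene median and shares were not computed for these cells, so these values have none beside them. With the length trend removed the sterol median was -0.80 and the fatty acid median 0.088. The part of depth and mitochondrial share in the other values was not tested. Length trends were not particular to this comparison. The rho was -0.29 for HS-5 cells between the cultures, 0.28 for HS-5 over MM.1S in the monocultures and 0.065 within the coculture. With the trend removed the sterol median between the monocultures was -2.70.

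In HS-5 cells the set differed little between the cultures. Of 25 members at level, 1 was at least 2-fold higher in coculture, INSIG1, where 1.42% of 8812 genes were, and 0 were at least 2-fold lower, where 2.13% were. The sterol enzymes had a median log2 ratio of 0.24 over 12 genes and the fatty acid enzymes of 0.07 over 8, against -0.04 for all genes. With each cell given equal weight the sterol median was -0.10. The 18 sterol enzymes summed to 542 CPM (524 to 561) in monoculture and 577 CPM (547 to 607) in coculture, a log2 ratio of 0.089 (-0.0013 to 0.18). This comparison shares the coculture library with that of the MM.1S cells.

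INSIG1 in HS-5 cells had a log2 ratio of 1.19 (0.92 to 1.46). The MM.1S cells of the same library carried 4342 CPM of INSIG1. Free RNA estimated from MM.1S-specific genes came to 31.1 of the 89.0 CPM in HS-5 cells, which left 58.3 CPM and a log2 ratio of 0.58. The same genes gave the cells their line, which left out cells rich in MM.1S RNA. The estimate may thus be low, and the 0.58 has no interval. JCHAIN, a chain of secreted antibody that HS-5 cells lack and one of the genes that assigned the line, went from 0.977 CPM in HS-5 monoculture to 30.2 CPM in HS-5 coculture cells, with 4164 CPM in the MM.1S cells beside them. For the other members the estimate of free MM.1S RNA in HS-5 cells was at most 5.01 CPM, for FADS1.

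The other members of HS-5 cells stayed within 2-fold. The highest after INSIG1 were FADS1 at 0.47 (0.32 to 0.61) and HMGCS1 at 0.45 (-0.23 to 1.11), and the lowest were NSDHL at -0.53 (-1.11 to 0.01), ACACA at -0.46 (-1.08 to 0.12) and SCAP at -0.30 (-0.82 to 0.20). FDFT1 at 0.41 (0.20 to 0.62), SQLE at 0.30 (0.04 to 0.55), MSMO1 at 0.39 (0.04 to 0.73) and SCD at 0.43 (0.18 to 0.68) had intervals above 0, and EBP at -0.27 (-0.51 to -0.03) below. The intervals of HMGCS1, ACACA, SCAP and NSDHL reached both sides of 0. The rest at level lay between -0.26 for PMVK and 0.39 for SC5D, among them SREBF2 at 0.26, SREBF1 at 0.07 and LPIN1 at -0.00.

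To compare single cells at one depth, each cell was thinned to 1000 UMIs, which kept 3870 of 3947 MM.1S monoculture cells, 379 of 1627 MM.1S coculture cells, 1802 of 3732 HS-5 monoculture cells and 1001 of 2108 HS-5 coculture cells. INSIG1 was found in 92.2% (91.3 to 93.02%) of MM.1S monoculture cells and 91.8% (88.6 to 94.4%) of MM.1S coculture cells (exact 95% Clopper-Pearson). HS-5 cells showed INSIG1 in 4.05% (3.19 to 5.07%) and 7.39% (5.85 to 9.19%). JCHAIN, which HS-5 cells lack, was found in 0.222% (0.0605 to 0.567%) of HS-5 monoculture and 2.298% (1.46 to 3.43%) of HS-5 coculture cells, and in 95.5% of MM.1S coculture cells. At this depth the INSIG1 shares of the MM.1S cultures overlapped, and those of the HS-5 cultures did not. Thinned to 500 UMIs, which kept 3947 and 1188 MM.1S cells, the MM.1S shares were 81.8% (80.6 to 83.00%) in monoculture and 75.7% (73.1 to 78.1%) in coculture and no longer overlapped. The HS-5 shares were then 1.54% (1.16 to 2.000%) and 3.87% (3.03 to 4.87%). Without thinning the INSIG1 shares were 96.4% and 79.5% in MM.1S cells and 5.57% and 8.63% in HS-5 cells.

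HMGCS1 was found in 43.98% (42.4 to 45.6%) of MM.1S monoculture cells and 21.4% (17.4 to 25.8%) of coculture cells, and MSMO1 in 31.9% (30.4 to 33.4%) and 7.39% (4.97 to 10.5%). CYP51A1 went the other way, with 36.3% (34.8 to 37.9%) and 48.02% (42.9 to 53.2%), and LPIN1 too, with 12.7% (11.7 to 13.8%) and 22.4% (18.3 to 26.97%). For these 4 genes the intervals of the cultures did not overlap, at 500 UMIs as well. Thinning keeps the deeper cells only. Summed over all kept MM.1S cells, the coculture over monoculture log2 ratio of CYP51A1 was 0.12, against a median of 0.25 for all genes. HSD17B7 was found in 55 of 3870 monoculture cells and 0 of 379 coculture cells, which allows a share of cells with a UMI of up to 0.792%. At 500 UMIs HSD17B7 was found in 30 of 3947 and 6 of 1188 cells, 0.7601% (0.513 to 1.08%) and 0.505% (0.186 to 1.096%), which overlapped, and without thinning in 173 of 3947 and 9 of 1627 cells. In HS-5 cells HMGCS1 was found in 0.832% and 1.498%. The second is under the JCHAIN share and was not read as expression in single cells, although the estimate of free HMGCS1 RNA was 1.56 of 12.5 CPM there.

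Summed over the 18 sterol enzymes, MM.1S monoculture cells held a mean of 4.23 UMIs per 1000 and MM.1S coculture cells 2.94, with a variance 1.77 and 1.28 times the mean. HS-5 cells held 0.553 and 0.582, with a variance 1.00 and 1.17 times the mean. At least 1 sterol enzyme UMI was found in 95.3% and 92.6% of MM.1S cells and in 42.5% and 43.1% of HS-5 cells. In MM.1S cells the median was 4 UMIs in monoculture and 3 in coculture, and the upper decile began at 8 and 5 UMIs. The 8 fatty acid enzymes had means of 2.01 and 2.23 in MM.1S and 0.501 and 0.572 in HS-5 cells. INSIG1 spread widest, with means of 5.26 and 4.79 UMIs in MM.1S cells and variances 3.22 and 2.84 times the mean. The ratio of variance to mean depended on depth. Thinned to 500 UMIs, it was 1.34 and 1.29 for the sterol enzymes in MM.1S cells, and 1.02 and 1.00 in HS-5 cells. For INSIG1 in MM.1S cells it was then 2.147 and 2.149, so no difference in spread between the cultures was read from these ratios. MM.1S monoculture cells with more than 4 INSIG1 UMIs held a mean of 5.18 sterol enzyme UMIs against 3.30 in the other cells, and in coculture 3.52 against 2.45. Cells with an HMGCS1 UMI held 4.14 UMIs of the other sterol enzymes against 3.04 in monoculture, but 2.83 against 2.65 in coculture. For SQLE the values were 4.14 against 3.39 and 2.78 against 2.26. These are descriptions over cells of 1 library each.

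**Figure D4:**
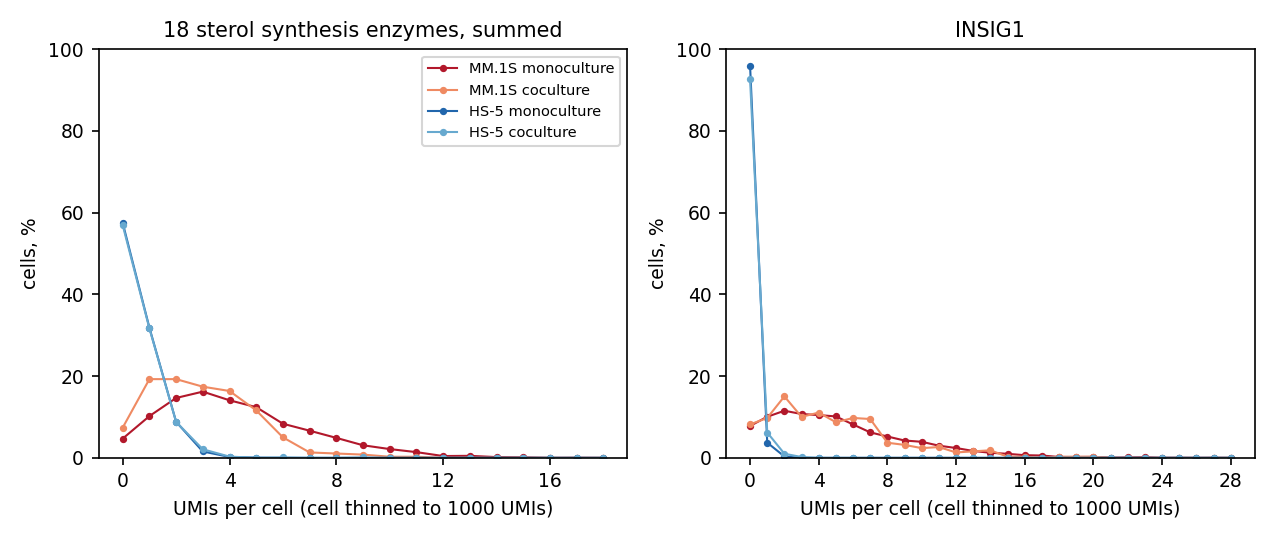
Distribution over single cells, thinned to 1000 UMIs, of the summed UMIs of the 18 sterol synthesis enzymes (left) and of INSIG1 (right) in the 4 groups, in percent of cells. The HS-5 groups peak at 0, and the MM.1S coculture cells lie left of the MM.1S monoculture cells for the sterol enzymes (medians 3 and 4 UMIs) but have the same median of 4 UMIs for INSIG1.

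A further 30 genes of sterol and fatty acid metabolism that are not members were counted beside them. In MM.1S cells 24 were at level, of which 2 were at least 2-fold higher in coculture, where 19.9% of all genes were, and 1 lower, where 6.22% were. SOAT1, which esterifies cholesterol for storage, was higher at 1.14 (0.81 to 1.46). MLXIP was at 1.06 (0.55 to 1.55), and ERG28, a scaffold of the demethylation enzymes, was lower at -1.39 (-1.86 to -0.96). Their median was 0.05 over 24 genes. In HS-5 cells 25 were at level, with a median of 0.19. Of these 1 was at least 2-fold higher in coculture, where 1.42% of all genes were, and 0 lower, where 2.13% were. The 1 higher was ABCA1, the pump that exports cholesterol, at 1.01 (0.68 to 1.33). Between the monocultures 6 of 26 were at least 2-fold higher in HS-5, where 39.0% of all genes were, and 8 lower, where 15.8% were. Within the coculture 3 of 25 were higher and 3 lower, where 26.8% and 16.4% of all genes were.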

How the data were processed

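The authors deposited whole-number UMI counts per gene and cell barcode for 3 libraries, without normalization. The submitters' processing notes name STAR 2.5.3a, featureCounts 1.6.4, UMI-tools 1.0.0, SAMtools 1.9, Cell Ranger 3.0.2 and GRCh38; their roles, the annotation and the strand setting are not given in the sources used here. The libraries held 3994, 3865 and 3963 barcodes and 10433182, 6143448 and 3981392 UMIs (MM.1S, HS-5, coculture), and kept cells shared 2, 1 and 7 barcodes between pairs of libraries.

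Barcodes under 200 genes were dropped. Genes with at least 100 CPM in one monoculture and 50 times the other (51 marking MM.1S and 161 marking HS-5, no members) gave each coculture cell its line: a share of HS-5 UMIs under 0.2 meant MM.1S, over 0.8 HS-5, and the rest were left out as possible doublets; no doublet caller was run. UMIs were summed per line and library. Log2 ratios have no pseudocount and exact conditional binomial intervals, "at level" is a mean of at least 10 CPM, and for a gene at 0 a floor of 3 counts (2.27 CPM in MM.1S coculture cells) was used. The calls are folds of 2, with no test. Full values are given for the 3 highest and 3 lowest members of each comparison at that level and for INSIG1, SREBF1, SREBF2 and SCAP. The members and lists were chosen with earlier results of these data known, and 1 gene of the list of other pathway genes is not reported here. Transcript lengths (97.3% of symbols) came from GENCODE release 29. Numpy 2.4.6 and scipy 1.17.1 were used in Python 3.11.15. The ratios, intervals and line assignment were also run on Poisson counts simulated from the monoculture profiles. Such counts hold counting error only and cannot check the steps against other variation.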

Additional observations from a re-analysis of the deposited data

Results flagged for a closer look

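For 5 members the coculture over monoculture log2 ratio had intervals on opposite sides of 0 in the lines. The difference itself was not tested, since each line has 1 library per culture and both share the coculture library. How many of all genes met the same rule was not counted, and the all-gene medians were 0.25 in MM.1S and -0.04 in HS-5 cells. The HS-5 ratio minus the MM.1S ratio was 2.34 for MSMO1, 1.55 for INSIG1, 1.13 for FDFT1, 0.79 for FADS1 and 0.64 for SQLE. MSMO1 was at -1.95 in MM.1S and 0.39 in HS-5 cells, and INSIG1 at -0.36 and 1.19. FDFT1 was at -0.72 and 0.41, FADS1 at -0.32 and 0.47, and SQLE at -0.34 and 0.30. INSIG1 in HS-5 cells was at 0.58 after subtraction of free MM.1S RNA, whose estimate may be low. In MM.1S cells INSIG1 was at -0.01 in cells of 500 to 1500 UMIs.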

How the results depend on the processing

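Over 13 alternatives, 193 of 208 list medians and counts stayed within set limits, and no called member changed sign. For a list median the limits were the medians of its members' lower and upper counting limits, not a spread of the list median itself. For a count they were the same count, 0 included, or 1.5 times the main count. Thinned to 500 UMIs in place of 1000, 112 cell shares and variance to mean ratios moved beyond their limits and 16 did not. Fewer UMIs per cell lower such shares in themselves, so this count does not bear on the differences between the groups. In MM.1S cells the fatty acid median was 0.21 with median of ratios scaling and 0.088 with the length trend removed. The count of members at least 2-fold higher was 1 in cells of 500 to 1500 UMIs, with median of ratios scaling and with the length trend removed, and the count at least 2-fold lower was 3 at a minimum level of 50 CPM, which leaves fewer genes. In HS-5 cells the count higher was 0 with free RNA subtracted. Between the monocultures the sterol median was -3.52 and the fatty acid median -2.09 with median of ratios scaling, the fatty acid median was -2.20 with the length trend removed, and 1 member, SCAP, was at least 2-fold higher in HS-5 with 200 to 2500 genes and under 5% mitochondrial UMIs and in cells of 500 to 1500 UMIs. Within the coculture the sterol median was -1.58 at a minimum of 5 CPM and -2.54 at 50 CPM, where the fatty acid median was -2.07. Apart from the minimum levels and the subtraction, the cause was not tested. The all-gene shares of calls were not computed under the alternatives, so the counts given for them have none beside them. No paired analysis was possible because each group is 1 library. Only 379 of 1627 MM.1S coculture cells reached 1000 UMIs, and 3 counts there are worth 2.27 CPM, so small differences of low members were not detectable.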
